A study of Mus musculus with 9 samples.

Results

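Chemokines and their receptors were examined in gastric tumours of mice that had received interleukin 6 (IL6) or interleukin 11 (IL11), the cytokines whose signals pass through the shared receptor subunit gp130. The members were array probes whose gene name began with CCL, CXCL, CCR or CXCR and a digit, or was CX3CL1, CX3CR1, PPBP, PF4, XCL1 or XCR1, with names of the CCR4-NOT complex left out. This gave 75 of 45281 probes and 54 of 30774 names, made up of 52 probes for 36 ligands and 23 probes for 18 receptors. All mice were gp130Y575F/F on a mixed 129/BL6 background, carrying a substitution in gp130, and were 6 to 8 weeks old, so the comparisons hold for this mutant alone and no wild-type mouse was analysed here. The IL6 and IL11 groups received 1 intraperitoneal injection of 5 µg of recombinant human cytokine in 200 µl PBS. The PBS group received 200 µl of PBS. Tumour tissue was resected 60 min later from 3 mice per group, and total RNA of each tumour was measured on 1 Illumina bead array.

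Chemokines are small secreted proteins that bind G protein-coupled receptors on leukocytes and steer their migration along gradients. Inflammatory chemokines such as Cxcl1 and Cxcl2 recruit neutrophils and are induced quickly through NF-kB, interferon-inducible ones such as Cxcl9 recruit T cells, and homeostatic ones such as Cxcl12 and Ccl25 position cells in resting tissues. In mucosal tumours the ligands come from epithelium, stroma, vessels and leukocytes, while most receptors are carried by leukocytes. Because whole tumours were measured, fewer cells of a type and less RNA per cell cannot be told apart.

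Ligands were detected more broadly than receptors. A probe counted as detected on an array where its detection value, the share of negative control probes that it exceeded in brightness, was 0.95 or more. On all 9 arrays 16 of 52 ligand probes but 1 of 23 receptor probes were detected, the receptor being Cxcr4. Of all 45281 probes 14091 were detected on all 9 arrays, a share close to that of the ligand probes and above that of the receptor probes. A further 26 member probes, 14 for ligands and 12 for receptors, were detected on no array, and 15 were detected on 1 or 2 arrays. Of the 54 names, 20 had no detected probe, 10 ligands and 10 receptors. They included Ccl2, the main monocyte attractant, and its receptor Ccr2, the neutrophil chemokines Cxcl3 and Cxcl15, Cxcl11, and Cxcr6, the receptor of Cxcl16. A probe was tested where at least 3 arrays detected it, which held for 34 probes of 24 genes. These comprised 31 probes of 21 ligands and 1 probe each for the receptors Cx3cr1, Cxcr4 and Xcr1. Members detected per array numbered 26, 32 and 28 with IL6, 24, 24 and 34 with IL11, and 27, 39 and 30 with PBS, so the groups overlapped. Cxcl5 and the neutrophil receptor Cxcr2 had no probe among these names and were not analysed here.

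**Figure D1:**
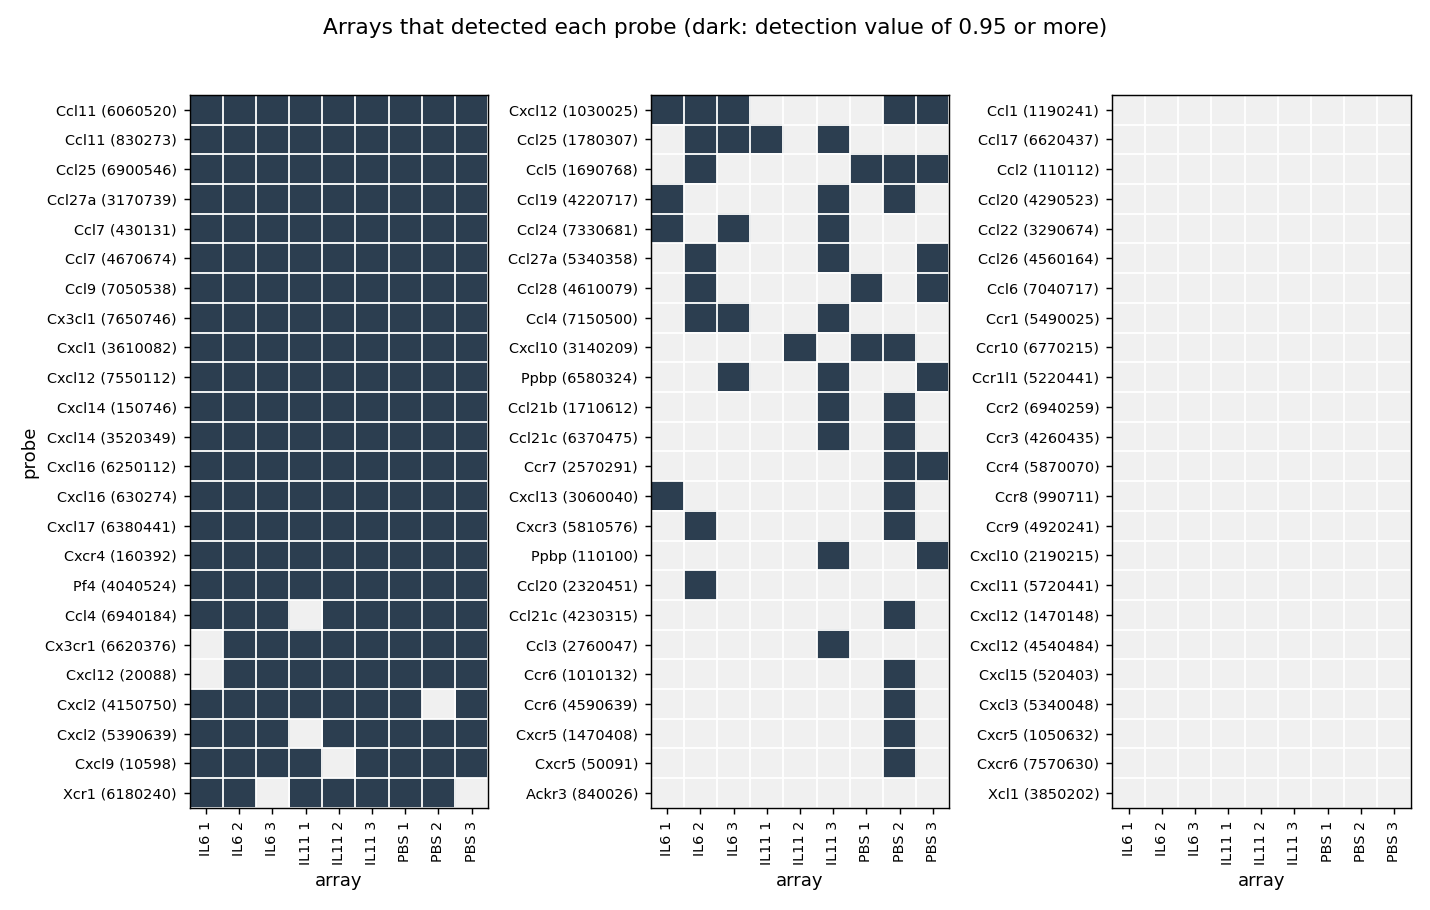
Arrays (columns, by group and replicate) on which each of 72 member probes (rows, with probe number) was detected, shown dark. The left column of probes holds those seen on most arrays, the middle one those seen on few, and PBS replicate 2 has the most dark cells among the probes seen on 1 or 2 arrays.

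The arrays of the PBS group were less alike than those of the other groups. Correlation across probes, which are not independent replicates, was 0.977 to 0.983 between IL6 arrays, 0.982 to 0.986 between IL11 arrays and 0.931 to 0.941 between PBS arrays. Between 37.4% and 40.6% of all probes were detected per array. PBS replicates 2 and 3 stood apart. On PBS replicate 2 the mean log2 level of 3 measured B and plasma cell markers was 9.61, against 6.42 to 7.21 on the other arrays, and on PBS replicate 3 that of 5 squamous epithelium markers was 9.50, against 6.89 to 8.23. Sdc1 of the B and plasma cell list and Lor and Ivl of the squamous list did not stand out on these arrays. Of 10 gastric epithelial markers on the array, 7 were measured, at a mean log2 level of 11.82 to 12.97, while the parietal cell genes Atp4a and Atp4b and the gene Gif were detected on too few arrays to be tested. Socs3, a direct target of gp130 signalling, rose by 2.32 ± 0.29 on the log2 scale with IL6 (SE, n = 3, adjusted p = 0.0129), and its difference with IL11 was 1.85 ± 0.29 (adjusted p = 0.0615). The IL6 call of Socs3 was lost without any 1 of the IL6 arrays, with the 6 arrays compared and with no probe filter (adjusted p = 0.0531 to 0.112).

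No chemokine or receptor probe passed the test in any comparison. Tests were made with limma on log2 levels of all 18925 probes detected on at least 3 arrays, with Benjamini-Hochberg adjustment over all of them and a threshold of 0.05. With IL6 against PBS 0 of 34 tested members passed, where 0.264% of all tested probes did, and the smallest adjusted p was 0.172, for Cx3cr1. At an unadjusted p under 0.05 there were 2 members higher and 8 lower with IL6, against 7.69% and 6.68% of all tested probes. The IL6 and PBS arrays did not overlap for 8 members, against 16.8% of tested probes. Among the 17 members detected on all arrays IL6 lay above PBS without overlap for 1 and below for 3, against 8.47% and 9.25% of all such probes. The median difference of the 34 members was -0.09 (log2), and that of all tested probes -0.01. Some genes have several probes among the 34. With the brightest probe of each gene alone, the median was -0.31 for 24 members and -0.03 for all genes. The difference between these medians was not tested.

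With IL11 against PBS 0 of 34 members passed, where 0.0898% of tested probes did, and the smallest adjusted p was 0.066, for Cxcl9. At an unadjusted p under 0.05 there were 1 higher and 9 lower, against 7.02% and 6.40% of tested probes. The IL11 and PBS arrays did not overlap for 8 members, against 18.7% of tested probes, and among the 17 detected on all arrays IL11 lay above PBS for 1 and below for 4, against 8.74% and 11.2%. The median difference was -0.06 for the members and -0.01 for all tested probes, and with 1 probe per gene -0.34 and -0.02. The cytokine comparisons share the PBS arrays, so their results are not independent of each other. With IL11 against IL6 0 of 34 members passed, where 0.00% of all tested probes did, with 0 higher and 1 lower at an unadjusted p under 0.05, against 1.20% and 1.15% of tested probes. IL11 and IL6 arrays did not overlap for 3 members, against 10.4% of tested probes, with Cxcl17 higher and Cxcl9 and a Cxcl12 probe lower with IL11.

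Which array is left out decides some of these counts. Without PBS replicate 1, the PBS array nearest to the cytokine arrays for Cxcl12 and Cx3cr1, 4 members passed with IL6 (Cx3cr1 and 3 Cxcl12 probes, all lower) and 4 with IL11 (Cxcl9, Cx3cr1 and 2 Cxcl12 probes, all lower). The threshold was then passed by 737 tested probes with IL6 and 515 with IL11, against 50 and 17 with all arrays. Without PBS replicate 3 the count was 1 with IL11 (Cxcl9), where 13 of all tested probes passed, and 0 with IL6. Without PBS replicate 2 it was 0 with either cytokine.

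**Figure D2:**
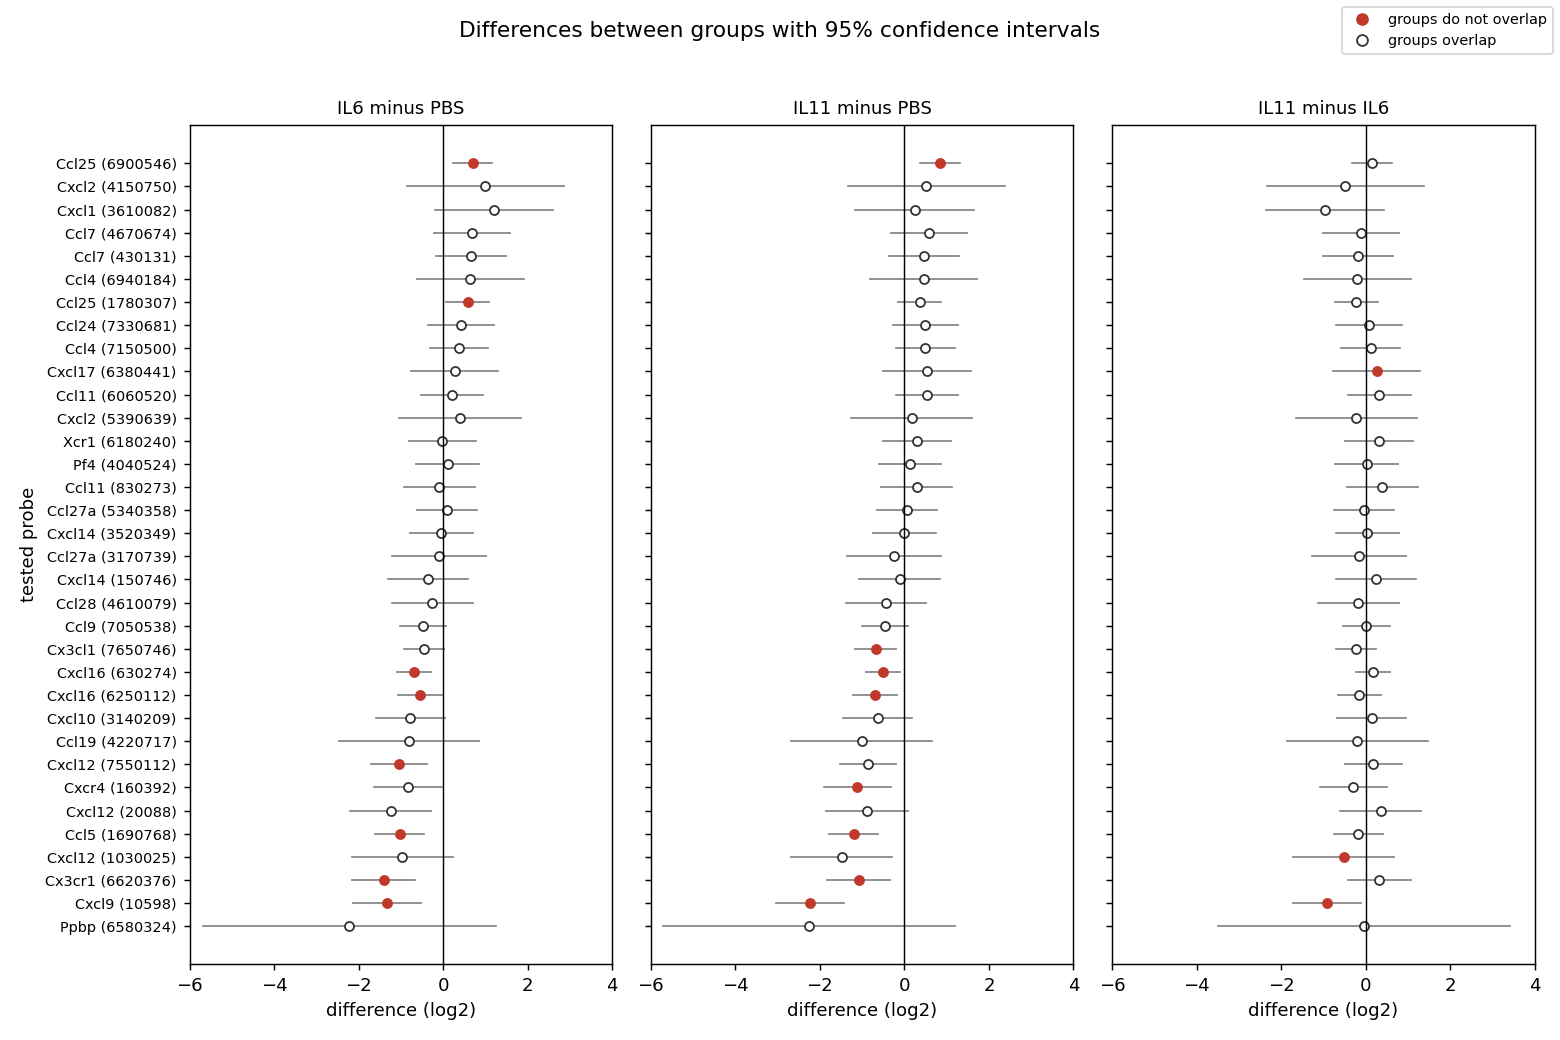
Difference in log2 level between groups for each of the 34 tested probes (rows), with the 95% confidence interval of the model, in panels for IL6 against PBS, IL11 against PBS and IL11 against IL6. Filled points mark probes whose groups do not overlap, and the interval of the Ppbp probe is the widest. Against PBS, 2 filled points lie above 0 and 6 below with IL6, and 1 above and 7 below with IL11. Of all 18925 tested probes 1602 lay above and 1574 below without overlap with IL6, and 1654 and 1894 with IL11.

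Cxcl9, an interferon-gamma-inducible ligand that attracts activated T cells through Cxcr3, showed the largest difference with IL11 among the members detected on most arrays. Its log2 levels, in the order of replicates 1, 2 and 3, were 6.20, 6.18 and 6.15 on the IL6 arrays, 5.17, 4.82 and 5.81 on the IL11 arrays, and 7.40, 8.28 and 6.83 on the PBS arrays. The 3 IL6 arrays agreed to within 0.1, every PBS array lay above them, and the IL11 arrays lay below them without overlap. Cxcl9 was not detected on IL11 replicate 2 (detection value 0.827). On IL11 replicate 1 it lay near the lowest level detected there, 5.12. The IL11 mean, and the differences and fold taken from it, therefore include values at or near background. The group means were 6.18 ± 0.03 with IL6, 5.27 ± 0.50 with IL11 and 7.51 ± 0.73 with PBS (SD, n = 3 each). With IL11 the level was 0.212-fold (95% interval 0.122 to 0.369) that with PBS, a difference of -2.24 ± 0.36 (SE, adjusted p = 0.066), and with IL6 the difference was -1.33 ± 0.36 (adjusted p = 0.201). IL11 minus IL6 was -0.91 ± 0.36, with an unadjusted p of 0.0296 and an adjusted p of 1. Without PBS replicates 2 and 3 the differences were -2.14 with IL11 and -1.22 with IL6.

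The other ligands of Cxcr3 were close to background. Cxcl11 and a Cxcl10 probe were detected on no array, and the other Cxcl10 probe was detected on no IL6 array, 1 IL11 array and 2 PBS arrays. Its levels were 4.77, 4.81 and 4.73 on the IL6 arrays, 4.57, 5.32 and 4.85 on the IL11 arrays, and 5.73, 6.25 and 4.65 on the PBS arrays. PBS replicates 1 and 2 and IL11 replicate 2 were the high arrays. IL6 lay below PBS by a floor ratio of 1.31-fold (adjusted p = 0.36). The confidence interval of the fold in the model, 0.334 to 1.027, included 1. A floor ratio sets the mean of the brighter group against that of the dimmer group after each array of the dimmer one is raised to the lowest level detected on it. Undetected arrays of the brighter group keep their levels. Spread between arrays does not enter the ratio, so it is not a lower confidence limit. Cxcr3 itself was detected on IL6 replicate 2 and PBS replicate 2.

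Ccl5, which attracts T cells, monocytes and eosinophils through several receptors, also lay lower on the cytokine arrays. It was detected on 1 IL6 array, no IL11 array and all PBS arrays, with levels of 4.90, 5.26 and 4.69 on the IL6 arrays, 4.60, 4.90 and 4.84 on the IL11 arrays, and 5.90, 6.49 and 5.54 on the PBS arrays. Every cytokine array lay below every PBS array. The PBS arrays alone met the rule for testing, which favours probes that are high with PBS. The separation is therefore not independent of that rule. IL6 differed from PBS by -1.03 ± 0.26 (adjusted p = 0.188) and IL11 was lower by a floor ratio of 1.76-fold (adjusted p = 0.171). Of 9 T and NK cell markers on the array 3 were measured (Cd3d, Cd3e and Lck), at a mean level of 5.09 to 5.33 with IL6, 4.84 to 5.02 with IL11 and 4.86 to 7.28 with PBS. The part of T cells in the Cxcl9 and Ccl5 values was not tested.

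Cx3cr1, the fractalkine receptor of monocytes and tissue macrophages, gave the smallest p with IL6. Its levels were 4.99, 5.40 and 5.80 on the IL6 arrays, 6.07, 5.25 and 5.85 on the IL11 arrays, and 6.17, 7.21 and 7.04 on the PBS arrays, so all cytokine arrays lay below the PBS arrays, with PBS replicate 1 the nearest. The group means were 5.40 ± 0.40 with IL6, 5.72 ± 0.43 with IL11 and 6.81 ± 0.56 with PBS (SD, n = 3 each). Cx3cr1 was not detected on IL6 replicate 1 (detection value 0.8985). On IL11 replicate 2 it lay at the lowest level detected there, 5.25. The cytokine means, and the differences and fold taken from them, therefore include values at background. The difference was -1.41 ± 0.33 with IL6, or 0.377-fold (95% interval 0.225 to 0.631), with an adjusted p of 0.172. It was -1.08 ± 0.33 with IL11 (adjusted p = 0.278). Set against PBS replicate 1 alone, the differences were -0.77 with IL6 and -0.45 with IL11. Its ligand Cx3cl1, a membrane-bound chemokine of epithelium and endothelium, was bright on all arrays, at 9.68, 10.27 and 9.72 on the IL6 arrays, 9.65, 9.70 and 9.63 on the IL11 arrays, and 10.10, 10.28 and 10.66 on the PBS arrays. IL6 replicate 2 reached the PBS range and the other cytokine arrays lay below it. The difference was -0.68 ± 0.22 with IL11 (adjusted p = 0.281) and -0.45 ± 0.22 with IL6 (adjusted p = 0.368), and the sign with IL6 turned under median scaling, to 0.054, which moved the median of all probes to 0.369.

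Cxcl16, a transmembrane chemokine of macrophages, dendritic cells and epithelium that binds Cxcr6, was measured by 2 probes. The brighter had levels of 9.21, 9.21 and 9.17 on the IL6 arrays, 9.20, 9.47 and 9.43 on the IL11 arrays, and 9.72, 10.18 and 9.74 on the PBS arrays. The dimmer had levels of 5.88, 6.14 and 6.02 on the IL6 arrays, 6.11, 5.76 and 5.72 on the IL11 arrays, and 6.56, 6.99 and 6.14 on the PBS arrays. In both probes every cytokine array lay below every PBS array, by the smallest margin in the dimmer one. The differences were -0.68 ± 0.18 and -0.55 ± 0.23 with IL6 (adjusted p = 0.199 and 0.324) and -0.51 ± 0.18 and -0.70 ± 0.23 with IL11 (adjusted p = 0.31 and 0.293). Ccl9, a monocyte and dendritic cell attractant, ranged from 6.27 to 6.98 with IL6, 6.55 to 6.92 with IL11 and 6.80 to 7.48 with PBS, with overlap. Macrophage markers were set beside these members. Of 12 on the array 9 were measured, with mean levels of 7.10 to 7.60 with IL6, 6.70 to 7.49 with IL11 and 7.71 to 8.34 with PBS, which did not overlap with either cytokine group, while Cd163, Fcgr1 and Marco were not detected on enough arrays. The markers did not all run with that mean, as Adgre1, at 5.22, and Cd14, at 9.55, had their lowest level of all arrays on PBS replicate 2. None of the 9 markers passed the test, and the part of macrophages in the levels of Cx3cr1, Cxcl16, Cxcr4 and Cxcl9 was not tested.

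**Figure D3:**
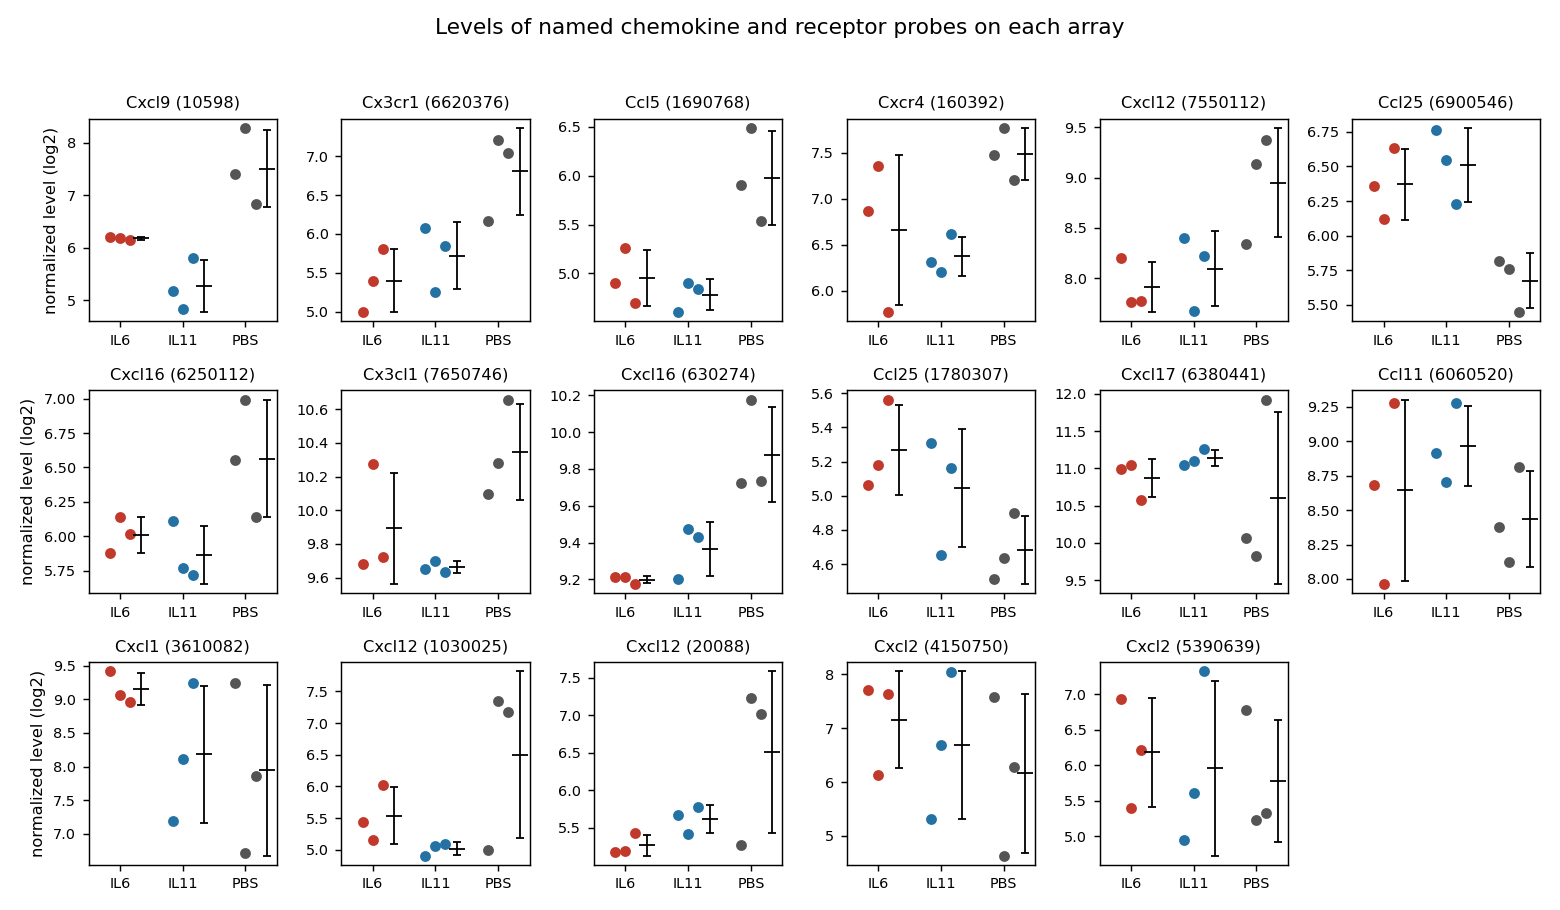
Normalized log2 level of the 17 probes given in full on each array (points, replicates 1 to 3 from left to right within IL6, IL11 and PBS), with the mean and SD beside them (n = 3). Cxcl9, Ccl5, Cx3cr1 and the Cxcl16 probes lay lower on every cytokine array than on any PBS array, and the Ccl25 probe 6900546 higher.

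Cxcl12, the stromal chemokine that retains and recruits cells carrying Cxcr4, was read by 5 probes, of which 2 were detected on no array. The brightest, probe 7550112, was at 8.20, 7.77 and 7.77 on the IL6 arrays, 8.39, 7.68 and 8.22 on the IL11 arrays, and 8.34, 9.13 and 9.38 on the PBS arrays. Probe 20088 was at 5.18, 5.20 and 5.43 on the IL6 arrays, 5.67, 5.42 and 5.77 on the IL11 arrays, and 5.28, 7.24 and 7.02 on the PBS arrays. Probe 1030025, undetected with IL11 and on PBS replicate 1, was at 5.43, 5.16 and 6.03 on the IL6 arrays, 4.91, 5.07 and 5.09 on the IL11 arrays, and 4.99, 7.34 and 7.17 on the PBS arrays. In all 3 probes PBS replicates 2 and 3 lay high. PBS replicate 1 lay at the level of the cytokine arrays in probes 20088 and 1030025, so their groups overlapped, and in probe 7550112 overlap was confined to IL11. Against PBS the differences of the brightest probe were -1.04 ± 0.30 with IL6 (adjusted p = 0.219) and -0.85 ± 0.30 with IL11 (adjusted p = 0.307). For probe 20088 they were -1.24 ± 0.43 with IL6 and -0.89 ± 0.43 with IL11 (adjusted p = 0.271 and 0.394). Probe 1030025 differed by -0.96 ± 0.53 with IL6 (adjusted p = 0.415). With IL11 it was lower than with PBS by a floor ratio of 2.54-fold (adjusted p = 0.317). It was lower than with IL6 by a floor ratio of 1.3-fold (adjusted p = 1), where the confidence interval of the fold, 0.305 to 1.596, included 1. The 3 IL6 arrays alone met the rule for testing probe 1030025, which no IL11 array detected. Its separation of IL11 from IL6 is therefore not independent of that rule. Without PBS replicates 2 and 3 the differences of the brightest probe were -0.43 with IL6 and -0.24 with IL11, and that of probe 1030025 with IL6 was 0.55. The mean of 6 smooth muscle markers, of 8 on the array, was 8.16 to 8.36 with IL6, 8.38 to 9.21 with IL11, and 8.47, 9.27 and 9.53 on PBS replicates 1 to 3. The 7 endothelial markers had means of 7.56 to 7.76 with IL6, 7.68 to 7.98 with IL11 and 7.75 to 8.23 with PBS. The part of these tissues in the Cxcl12 values was not tested.

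Cxcr4, the receptor of Cxcl12 on leukocytes, endothelium and some tumour cells, was at 6.86, 7.36 and 5.77 on the IL6 arrays, 6.31, 6.20 and 6.62 on the IL11 arrays, and 7.48, 7.77 and 7.20 on the PBS arrays. IL11 arrays lay below all PBS arrays, while IL6 replicate 2 lay within the PBS range and IL6 replicate 3 was the lowest array. The differences were -1.11 ± 0.36 with IL11 (adjusted p = 0.286) and -0.82 ± 0.36 with IL6 (adjusted p = 0.338). Ackr3, the scavenging receptor of Cxcl12, named CXCR7 on the array, was detected on no array. Xcr1, the receptor of cross-presenting dendritic cells, was detected on 7 arrays at 5.06 to 5.89 with IL6, 5.32 to 6.15 with IL11 and 4.74 to 6.04 with PBS, with overlap, and its ligand Xcl1 on none.

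Ccl25, the small-intestinal and thymic chemokine that draws cells carrying Ccr9, was the member whose cytokine arrays all lay above PBS. Its brighter probe was at 6.36, 6.12 and 6.63 on the IL6 arrays, 6.76, 6.54 and 6.23 on the IL11 arrays, and 5.81, 5.76 and 5.45 on the PBS arrays, and every cytokine array lay above every PBS array. The group means were 6.37 ± 0.26 with IL6, 6.51 ± 0.27 with IL11 and 5.67 ± 0.20 with PBS (SD, n = 3 each). The difference was 0.70 ± 0.21 with IL6 (adjusted p = 0.232) and 0.84 ± 0.21 with IL11 (adjusted p = 0.221). The dimmer probe was detected on 2 IL6 arrays, 2 IL11 arrays and no PBS array. Its levels were 5.06, 5.18 and 5.56 on the IL6 arrays and 5.31, 4.65 and 5.17 on the IL11 arrays. They were 4.51, 4.64 and 4.90 on the PBS arrays. The probe was higher with IL6 by a floor ratio of 1.07-fold (adjusted p = 0.303). The cytokine arrays alone met the rule for testing this probe, so its separation with IL6 is not independent of that rule. With IL11 it overlapped PBS, and the floor ratio was under 1. Ccr9, its receptor, was detected on no array. Under median scaling the brighter probe passed with IL6, at 1.02 against a median of all probes of 0.369 (adjusted p = 0.0229).

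Cxcl1 and Cxcl2, the neutrophil chemokines that act on Cxcr2, varied widely between the mice of the IL11 and PBS groups. Their promoters are shown because both genes are textbook targets of NF-kB, with that of Cxcl9, which of the tested members had the largest difference between IL11 and PBS after Ppbp, set beside them. All are on mouse chromosome 5. The 250 bases before the annotated start of each, 5′ to 3′ on the gene's own strand, come from RefSeq, mouse build GRCm38.p6, and capitals mark the NF-kB consensus motif. Cxcl1 is at chr5:90890995-90891244 (plus strand), Cxcl2 at chr5:90903649-90903898 (plus strand) and Cxcl9 at chr5:92328080-92328329 (minus strand).
Cxcl1: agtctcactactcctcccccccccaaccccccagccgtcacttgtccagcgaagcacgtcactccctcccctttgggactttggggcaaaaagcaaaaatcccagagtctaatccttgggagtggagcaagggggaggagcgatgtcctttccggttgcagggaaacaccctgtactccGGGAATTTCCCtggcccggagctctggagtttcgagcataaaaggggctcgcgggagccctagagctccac
Cxcl2: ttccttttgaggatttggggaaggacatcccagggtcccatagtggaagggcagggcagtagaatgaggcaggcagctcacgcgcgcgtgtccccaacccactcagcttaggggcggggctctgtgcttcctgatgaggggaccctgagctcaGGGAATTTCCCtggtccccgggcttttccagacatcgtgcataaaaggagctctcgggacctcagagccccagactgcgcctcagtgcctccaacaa
Cxcl9: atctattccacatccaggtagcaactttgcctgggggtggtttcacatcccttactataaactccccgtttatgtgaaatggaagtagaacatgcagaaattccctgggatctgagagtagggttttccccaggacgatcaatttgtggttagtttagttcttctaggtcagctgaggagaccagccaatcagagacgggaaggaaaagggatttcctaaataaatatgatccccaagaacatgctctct
The same 11 bases, GGGAATTTCCC, were found in the Cxcl1 promoter 71 to 61 bases and in the Cxcl2 promoter 97 to 87 bases before the start, where overlapping matches on both strands share them. The NF-kB consensus motif was found in 4 of 20 promoters of tested members (Ccl9, Cxcl1, Cxcl10 and Cxcl2) and in 7.25% of all 32851 promoters of this length. The STAT motif TTCNNNGAA was found in 1 of the 20, that of Cxcl14, and in 7.02% of all. Neither motif was found in these 250 bases of Cxcl9. Promoters were matched for 17 of the 24 tested genes, some with several starts.

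Cxcl1 was at 9.41, 9.06 and 8.96 on the IL6 arrays, 7.20, 8.12 and 9.24 on the IL11 arrays, and 9.24, 6.72 and 7.87 on the PBS arrays. The IL6 arrays were all high, and in the IL11 and PBS groups single arrays reached them, IL11 replicate 3 and PBS replicate 1, while the others lay below. IL6 differed from PBS by 1.20 ± 0.62 (95% interval -0.20 to 2.60, adjusted p = 0.393), IL11 by 0.24 ± 0.62 (adjusted p = 0.881). Set against PBS replicate 1 alone the differences were -0.10 with IL6 and -1.06 with IL11, with the signs turned. The brighter Cxcl2 probe was at 7.72, 6.13 and 7.64 on the IL6 arrays, 5.30, 6.69 and 8.05 on the IL11 arrays, and 7.58, 4.63 and 6.28 on the PBS arrays. The dimmer was at 6.93, 5.40 and 6.22 on the IL6 arrays, 4.94, 5.60 and 7.32 on the IL11 arrays, and 6.78, 5.23 and 5.33 on the PBS arrays. IL11 replicate 3 was the highest array in both probes and PBS replicate 1 stood above the other PBS arrays. IL6 differed from PBS by 1.00 ± 0.83 and 0.40 ± 0.64 (adjusted p = 0.583 and 0.795), and IL11 by 0.52 ± 0.83 and 0.18 ± 0.64 (adjusted p = 0.798 and 0.918).

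Neutrophil markers such as S100a8 and S100a9 were set beside them. The mean of 5 measured markers, of 8 on the array, was 8.09, 8.35 and 8.72 on the IL6 arrays, 7.21, 7.60 and 8.96 on the IL11 arrays, and 8.56, 7.34 and 8.55 on the PBS arrays, with Ngp, Camp and Mmp8 not detected on enough arrays. Within the IL11 group the marker mean, Cxcl1 and both Cxcl2 probes had the same order of arrays, and in the PBS group replicate 2 had the lowest marker mean and the lowest Cxcl1 and Cxcl2. Of the 5 markers, Csf3r, detected on 4 arrays, did not follow the mean in the PBS group, at 5.00, 5.02 and 5.04. In the IL6 group the order differed, since replicate 1 had the lowest marker mean and the highest Cxcl1 and Cxcl2. The part of neutrophils in these values was not tested.

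**Figure D4:**
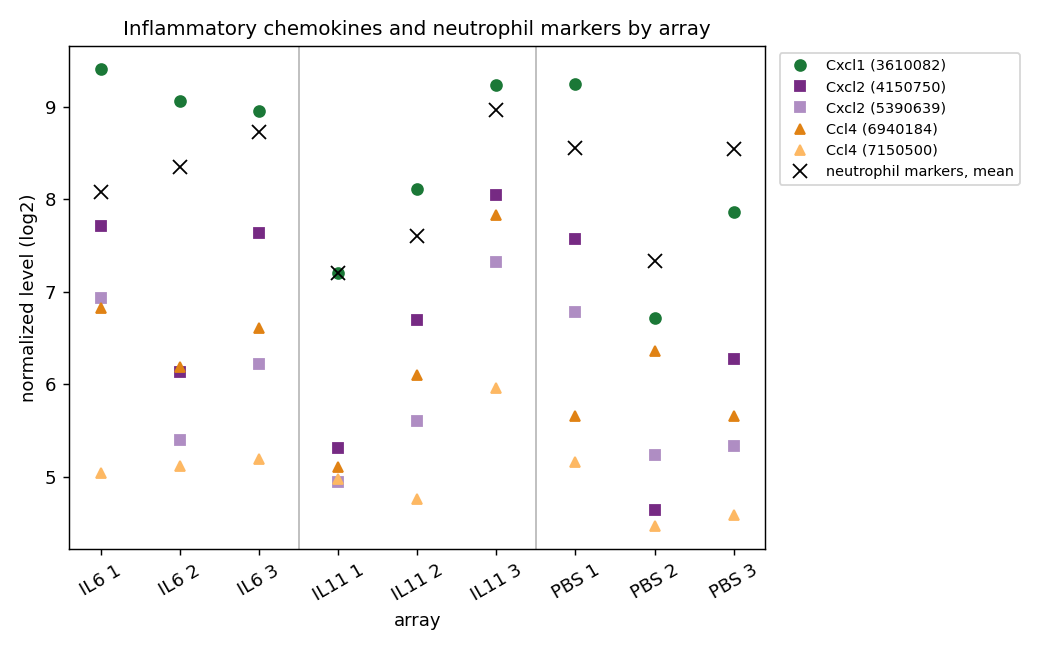
Normalized log2 level (vertical axis) of Cxcl1, both Cxcl2 probes, both Ccl4 probes and the mean of 5 neutrophil markers on each array (horizontal axis, by group and replicate). Levels of different probes are not comparable, and what can be read is the order of arrays within a symbol, where IL11 replicate 3 is the highest array for both Cxcl2 and both Ccl4 probes.

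The monocyte and eosinophil chemokines Ccl4, Ccl7, Ccl11 and Ccl24 gave no separation of groups, unlike Ccl5 above. Ccl4, a monocyte and T cell attractant from activated leukocytes, was at 6.83, 6.18 and 6.61 on the IL6 arrays, 5.10, 6.10 and 7.83 on the IL11 arrays, and 5.65, 6.36 and 5.66 on the PBS arrays in its brighter probe, with IL11 replicate 3 highest and IL11 replicate 1 lowest. Ccl3, its close relative, was detected on IL11 replicate 3 alone, at 6.15, the array on which both Ccl4 and both Cxcl2 probes peaked. Ccl7, a monocyte attractant read by 2 probes, spanned 5.83 to 7.69 with IL6, 6.29 to 7.26 with IL11 and 5.25 to 6.85 with PBS, and PBS replicate 3 was the lowest array for both.

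The eosinophil chemokine Ccl11 was bright, with levels of 8.68, 7.96 and 9.28 on the IL6 arrays, 8.92, 8.71 and 9.28 on the IL11 arrays, and 8.37, 8.12 and 8.82 on the PBS arrays in its brighter probe. The dimmer probe was at 7.63, 6.78 and 7.84 on the IL6 arrays, 7.90, 7.42 and 8.10 on the IL11 arrays, and 7.63, 6.80 and 8.11 on the PBS arrays. The groups overlapped in both probes. The brighter probe differed by 0.21 ± 0.33 with IL6 (adjusted p = 0.794) and 0.53 ± 0.33 with IL11 (adjusted p = 0.483). Ccl24, a related eosinophil chemokine, was detected on 2 IL6 arrays, 1 IL11 array and no PBS array. Cytokine arrays alone met the rule for testing, so its direction against PBS is not independent of that rule. It was higher by a floor ratio of 1.08-fold with IL6 (adjusted p = 0.576) and 1.14-fold with IL11 (adjusted p = 0.527). The confidence intervals of the fold, 0.784 to 2.294 with IL6 and 0.825 to 2.415 with IL11, included 1, and the groups overlapped. Ccr3, the receptor of both, was detected on no array.

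None of the tested chemokines of mucosal epithelium passed in any comparison. Cxcl17, a chemokine of mucosal surfaces, had levels of 10.99, 11.05 and 10.58 on the IL6 arrays, 11.05, 11.10 and 11.25 on the IL11 arrays, and 10.06, 9.82 and 11.92 on the PBS arrays. Its cytokine arrays were close together, and PBS replicate 3 was the highest and PBS replicate 2 the lowest of all. The difference was 0.27 ± 0.46 with IL6 and 0.54 ± 0.46 with IL11 (adjusted p = 0.807 and 0.607), and IL11 lay above IL6 by 0.26 ± 0.46 without overlap (adjusted p = 1). Cxcl14, a constitutive epithelial chemokine, spanned 6.26 to 8.34 with IL6, 5.64 to 8.57 with IL11 and 6.48 to 8.68 with PBS over its 2 probes. Ccl28, a mucosal chemokine that attracts plasma cells through Ccr10, was detected on 1 IL6 array, no IL11 array and 2 PBS arrays. It was lower with IL11 by a floor ratio of 1.09-fold (adjusted p = 0.653), and the confidence interval of the fold, 0.381 to 1.434, included 1. Ccl27a, a chemokine of keratinocytes with near-identical gene copies that its probes may not separate, spanned 5.78 to 7.50 with IL6, 6.41 to 6.68 with IL11 and 5.79 to 7.63 with PBS in its brighter probe. Ccr10, the receptor of both, was detected on no array. A Ccl20 probe, for the mucosal ligand of Ccr6, was detected on IL6 replicate 2 alone, at 5.11, and the other on none. The first was at 5.17 on IL6 replicate 1, where its detection value of 0.937 fell short of the cutoff.

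Members that guide lymphocytes into lymphoid tissue were high mostly on 1 array of the PBS group. Of the 15 probes detected on 1 or 2 arrays, PBS replicate 2 detected 12, including those for Ccr6, Ccr7, Cxcr3 and Cxcr5. The next highest number was 4, on IL11 replicate 3. Over all probes PBS replicate 2 detected 38.9%, within the range of the other arrays. The share of all rarely detected probes seen on that array was not counted, so the number cannot be read as particular to these members. Cxcl13, the B cell chemokine of follicles that binds Cxcr5, was at 7.59 on PBS replicate 2, at 5.61 on IL6 replicate 1 and at 4.37 to 4.53 on the other arrays. Ccl19, a ligand of Ccr7 on T cells and dendritic cells, was at 7.95 on PBS replicate 2, 5.98 on IL6 replicate 1 and 4.50 to 5.15 elsewhere. A Ccl21b probe, for the other ligand of Ccr7, was at 6.33 on PBS replicate 2 and 5.61 on IL11 replicate 3, and the 2 Ccl21c probes were also highest on PBS replicate 2. Ccl21 genes are near-identical copies that these probes may not separate.

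Receptors detected on that array included Ccr6 at 5.68 and 5.54, Ccr7 at 5.45, Cxcr3 at 5.85 and Cxcr5 at 5.87 and 5.20, each the highest of all arrays for its probe. Ccr7 was also detected on PBS replicate 3, at 5.39, and so did not set PBS replicate 2 apart. The B and plasma cell genes Cd79b, at 8.89, and Mzb1, at 10.1, and the T cell gene Cd3d, at 7.86, were also highest on PBS replicate 2. Of 7 B and plasma cell markers on the array 3 were measured, and the third, Sdc1, was at 9.84 there, against 9.60 to 10.4 on the other arrays. The part of lymphocytes in these values was not tested. Ccl19 was the tested member among them, with -0.81 ± 0.74 for IL6 minus PBS and -1.01 ± 0.74 for IL11 minus PBS (adjusted p = 0.623 and 0.55), and its cytokine arrays lay on both sides of PBS replicates 1 and 3.

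Ppbp, the precursor of platelet basic protein and of the neutrophil attractant Cxcl7, was high on PBS replicate 3. Its 2 probes were at 12.70 and 11.89 there, at 5.94 and 5.86 on IL11 replicate 3, and at 4.45 to 5.22 on the other arrays. Pf4, the platelet chemokine that is stored with Ppbp in platelet granules, was at 6.42, 6.03 and 5.82 on the IL6 arrays, 6.51, 5.66 and 6.16 on the IL11 arrays, and 6.57, 5.36 and 6.02 on the PBS arrays, and was highest on PBS replicate 1. The mean of 2 measured platelet and megakaryocyte markers, of 5 on the array, was 5.31 on PBS replicate 3, against 4.93 to 5.45 on the others. Of 5 measured squamous epithelium markers, Krt14 was high on the same arrays as Ppbp, at 14.2 on PBS replicate 3 and 11.2 on IL11 replicate 3, against 6.74 to 7.78 elsewhere. Krt13 was at 12.1 on PBS replicate 3, against 6.19 to 8.01 on the others, with IL11 replicate 3, at 8.01, close to IL6 replicate 1, at 7.94. The remaining markers differed less. On PBS replicate 3 Krt4 was at 5.92, against 4.75 to 5.56 on the others, while Lor, at 5.59, and Ivl, at 9.72, lay within the range of the other arrays. Of 8 squamous markers on the array, Krt5, Trp63 and Sprr3 were not detected on enough arrays to be measured, and the part of squamous tissue in the Ppbp values was not tested. The tested Ppbp probe differed by -2.22 ± 1.55 with IL6 and -2.26 ± 1.55 with IL11 (adjusted p = 0.51 and 0.52), and PBS replicates 1 and 2 lay within the range of the cytokine arrays.

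**Figure D5:**
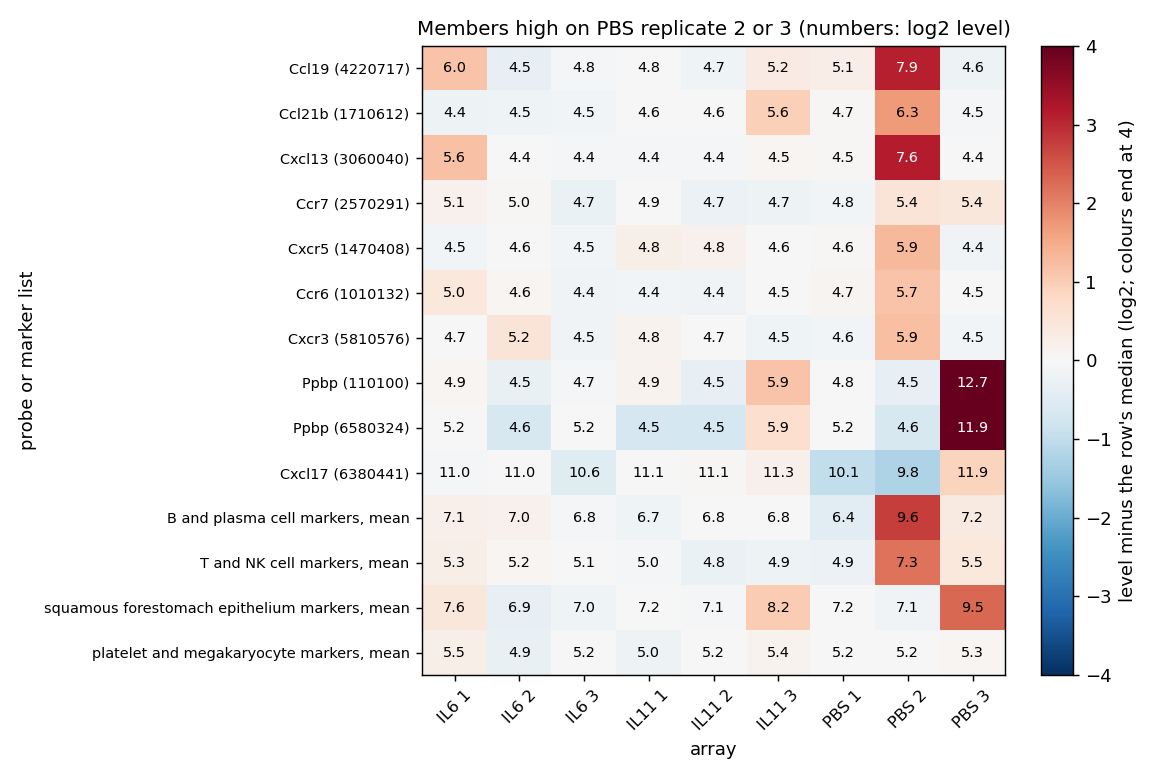
Members and marker means (rows) that were high on PBS replicate 2 or 3, by array (columns), with the log2 level printed in each cell and colour giving the level minus the row's median. Lymphoid chemokines, their receptors other than Ccr7 and the lymphocyte marker means stand out on PBS replicate 2. Ccr7 is at a similar level on PBS replicates 2 and 3. Ppbp and the squamous marker mean, in which Krt14 and Krt13 were high and Lor and Ivl were not, stand out on PBS replicate 3, and platelet markers on neither.

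Of 48 other genes of chemokine signalling and induction, 38 were tested through 58 probes. They comprised atypical receptors, G protein and kinase signalling, NF-kB and inducer genes, and proteases and glycans that process or present chemokines. Against PBS 1 of them passed with IL6 and the same one with IL11, higher in both, and with IL11 against IL6 none did. It was Icam1, the adhesion molecule by which leukocytes arrested by chemokines bind endothelium. It rose by 2.27 ± 0.22 with IL6 (log2, SE, n = 3, adjusted p = 0.00606) and by 1.87 ± 0.22 with IL11 (adjusted p = 0.0345), and IL11 minus IL6 was -0.40 ± 0.22. In 22 other settings, applied to this gene after the data were seen, the IL6 call was lost in 3, with the 6 arrays compared and without IL6 replicate 1 or 3 (adjusted p = 0.0504 to 0.0557). The IL11 call was lost in 10, with an adjusted p of 0.0503 to 0.218. They were the replicate block (adjusted p = 0.0940), the 6 arrays compared, no probe filter, and the fits without any 1 of the IL11 arrays, IL6 replicate 1 or 3, PBS replicate 2, or PBS replicates 2 and 3 together. The median difference of the 20 tested probes of NF-kB and inducer genes, which include Icam1, was 0.27 with IL6 and -0.02 with IL11, against -0.01 for all tested probes.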

How the data were processed

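The deposited table held, for each array, the mean bead intensity of every probe without background subtraction or normalization, and a detection column, both written by BeadStudio 3.4.0 as its header states. The deposited detection values run as a fraction up to 1. Their header names them p-values, yet brighter probes had larger ones (Spearman rho of 0.985 or more on each array), so 1 minus the value was used as the detection p. Lumi and Partek, named in the submitters' processing notes, belong to a further table that was not used here.

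Log2 levels were computed from the intensity values with limma 3.58.1 (R 4.3.3). Negative controls for background correction were inferred from detection p, the offset was 16, and quantile normalization followed. The 18925 of 45281 probes with a detection value of 0.95 or more on at least 3 of 9 arrays were tested with lmFit and eBayes (two-sided, 1 mean per group, 9.71 median degrees of freedom), with Benjamini-Hochberg adjustment over all of them and a threshold of 0.05. Each array was 1 mouse, and their number limits the precision. The procedure was tested on simulated data.

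Symbols came from RefSeq (GRCm38.p6), which matched 71 member probes by current symbol and 4 by older symbol. By rule, per-array values were given for up to 10 members whose groups did not overlap against PBS and for the 6 brightest probes. The rule also named Cxcl1, Cxcl2, Ccl2, Ccl20, Cxcl5, Cxcl12, Cxcr2, Cxcr4 and Cx3cl1, and was applied to their tested probes. Ccl2 and Ccl20 had no tested probe, and Cxcl5 and Cxcr2 had no probe among the member names, so they were not given by array. 1 member, counted in the totals, is not reported here. Other members given by array were chosen after their values were seen. The members, gene lists, cell markers and alternatives were chosen with earlier results of these data known. Alternatives covered background correction, normalization, probe filters, probe choice, moderation, array weights, a replicate block and arrays left out. Which arrays shared a chip is not given in the sources used here.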

Additional observations from a re-analysis of the deposited data

How the results depend on the processing

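Each count of members past the threshold and each difference of a named probe was recomputed under 13 settings and with each array left out. With IL6 the count of 0 became 2 of 34 under median scaling (Ccl25, and Ccl7 at 1.10, adjusted p = 0.0433). In that setting 1914 of all 18925 tested probes passed, 1909 of them higher, so the members passed no more often than probes in general. With IL11 it became 1, Cxcl9, under median scaling (adjusted p = 0.0491) and under trend and robust moderation (adjusted p = 0.0443). Over all tested probes 85 and 31 passed in these settings. Leaving out single arrays gave 0 to 4 with either cytokine, as named with the counts above, and IL11 against IL6 stayed at 0 members in every setting run. The difference of Cxcl9 with IL11 ranged from -2.58 to -1.17 and its adjusted p from 0.0344 to 0.306. Over all tested probes the calls ranged from 2 to 1914 with IL6 and from 0 to 515 with IL11, and with IL11 84 of 85 calls were higher under median scaling, against 14 of 17 under quantile normalization. A comparison chosen after seeing the data left out each PBS array in turn from the count of 8 members whose groups did not overlap. It gave 9 to 14 with IL6 and 11 to 14 with IL11, where the share over all probes was 22.9% to 38.9% and 25.1% to 42.2%, since fewer arrays overlap less.

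With the replicate block, 0 members passed in each comparison, and the calls over all probes were 27 with IL6, 0 with IL11 and 0 for IL11 against IL6. Of 9 pairs of arrays with the same number, 2 had deviations from their group means that correlated above 0.1 (range -0.12 to 0.35), so the numbers were not taken to pair the mice.

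Of the single-probe differences recomputed, 1044 kept sign and side of the threshold, 12 passed it and 24 turned sign. Under median scaling Cx3cl1 with IL6 turned to 0.054. Without PBS replicates 2 and 3 together, the differences with IL6 were -0.10 for Cxcl1, -0.42 and -0.60 for the Cxcl2 probes and 0.55 for Cxcl12 probe 1030025. Those with IL11 were -1.06 for Cxcl1, -0.89 and -0.82 for the Cxcl2 probes, and 0.030 and 0.34 for Cxcl12 probes 1030025 and 20088. With single arrays left out, the sign turned within these ranges. For IL6 against PBS they were -0.12 to 0.93 (Cxcl17) and -0.11 to 0.55 (Ccl11). For IL11 against PBS they were -0.37 to 0.89 (Cxcl1), -0.25 to 1.23 and -0.51 to 0.68 (Cxcl2 probes). For IL11 against IL6 they were -0.74 to 0.059 (Cxcr4), -0.016 to 0.64 (Ccl11), -1.16 to 0.21 and -0.91 to 0.28 (Cxcl2 probes). The causes were not tested. The alternative with the authors' own value table was not run, because its rows could not be matched to the probe numbers used here. At a detection value of 0.99, 18 to 30 members were detected per array, against 24 to 39 at 0.95.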
